A study of Mus musculus with 3 samples.

Results

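Capillary resident progenitor-like (CRP-like) endothelial cells (EC) were taken from single-cell RNA sequencing of Peyer's patches (PP), the lymphoid tissue of the small intestinal wall. The cells were chosen by their transcripts. A blood EC had at least 3 UMIs (unique molecular identifiers, each standing for 1 captured transcript) summed over Pecam1, Cdh5, Egfl7, Emcn and Flt1, fewer UMIs of 5 fibroblast genes than of these 5 genes, and at most 1 UMI of Mmrn1, Reln and Prox1, which mark lymphatic EC. A CRP-like cell was a blood EC with at least 3 UMIs summed over Apln, Pgf, Trp53i11, Egfl6 and Angpt2, called the rule genes here, and at most 2 UMIs of the cell division genes Mki67, Top2a, Cdk1, Birc5 and Ube2c. By this rule 145 cells were CRP-like, among 12480 barcodes, 11466 cells that passed the filters and 7048 blood EC. The rule genes and the counts made from them describe the choice of the cells and are no findings.

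The study increased COUP-TFII, the transcription factor encoded by Nr2f2, in EC and compared the mice with controls. EC-iCOUPOE mice (CDH5(PAC)CreERT2;COUP-TFIIOE/OE) carried a COUP-TFII overexpression allele and a tamoxifen-inducible Cre recombinase driven by Cdh5, which acts in endothelium generally and not in capillaries alone. Cells were isolated 14 to 19 days after tamoxifen from mice of 6 to 10 weeks. The control is 1 library labelled WT, of strain C57BL/6. The study used Cre-negative controls given tamoxifen and WT mice. Its methods place the isolation of EC from control mice after tamoxifen too, and whether the WT mice are included is not clear from the sources used here. The labels do not say how many mice stand behind a library, and males and females were processed together. There were 2 EC-iCOUPOE libraries, replicates 1 and 2. Values of the 3 libraries are given below in the order control, EC-iCOUPOE replicate 1 and EC-iCOUPOE replicate 2. The libraries held 17341398, 17417260 and 3548983 UMIs, and the CRP-like cells held 91363, 505318 and 88574 UMIs, so that 1 UMI stood for 10.9, 1.98 and 11.3 CPM. CPM are the UMIs of a gene in all cells of a class and library, per 1000000 UMIs of those cells. EC-iCOUPOE replicate 1 stood apart. It shared no barcode with the other libraries, whereas the control and EC-iCOUPOE replicate 2 shared 12 barcodes, none of a CRP-like cell, and its file names Cell Ranger 3.1.0 where theirs name 3.0.2. None of its barcodes began with AAACCT, as 14 and 2 barcodes of the control and of EC-iCOUPOE replicate 2 did, and 6 began with AAACCC, as none of theirs did.

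Capillaries grow by sprouting. Tip cells at the front of a sprout and the progenitor-like EC that lie within capillaries are known for Apln, which encodes the ligand apelin, for Pgf, a ligand of the VEGF receptor FLT1, for Angpt2, a ligand of the receptor TIE2, and for Fscn1, which encodes the actin bundling protein fascin. Apelin acts on neighbouring EC through its receptor APLNR. In PP, COUP-TFII belongs to the venous programme, and veins of PP include high endothelial venules, where high EC (HEC) carry the address molecule MAdCAM1, encoded by Madcam1, that lymphocytes use to enter. The Notch target HEY1 belongs to the capillary and arterial side, and the homeodomain factor NKX2-3 is a gut factor needed for Madcam1.

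Apln (X:48025146-48034853, minus strand, GRCm38 as in all coordinates here) had 24, 116 and 39 UMIs in the CRP-like cells, or 263, 229.6 and 440.3 CPM, and 16.0, 16.6 and 7.51 CPM in other capillary EC (CapEC). These CapEC were 491, 293 and 186 non-dividing blood EC with at least 3 UMIs of 6 capillary genes and at most 1 UMI each of 6 arterial and 7 venous genes, outside the CRP-like cells. The CRP-like cells held 41.4%, 75.3% and 81.3% of all Apln UMIs in blood EC. In venous EC, Apln stood at 0.595, 1.28 and 0.985 CPM. These EC too had fewer than 3 UMIs of the rule genes, so their low Apln was in part set by the choice. Pgf (12:85166635-85177790, minus strand) stood at 296, 176 and 259.7 CPM in CRP-like cells and 2.28, 3.02 and 7.51 CPM in other CapEC. In the control library 61 of the 654 Pgf UMIs lay in blood EC, and the rest lay in cells outside blood endothelium. Trp53i11 (2:93187548-93201759, plus strand), a p53-inducible gene, stood at 328, 548 and 644 CPM against 83.2, 152 and 173 CPM in other CapEC. Angpt2 (8:18690263-18741562, minus strand) stood at 274, 71.2 and 135 CPM against 17.1, 3.02 and 10.0 CPM. Of the rule genes, Trp53i11 was the one with a clear level in other CapEC, and Egfl6 (X:166523007-166585720, minus strand) had 0 UMIs in the CRP-like cells and in all blood EC of every library.

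Fscn1 (5:142960343-142973185, plus strand) was the only marker of these cells that the rule did not use. It was higher in CRP-like cells than in other CapEC in all 3 libraries, with 503, 708 and 903 CPM against 165, 273 and 183 CPM. The log2 ratio was 1.76 ± 0.48 (SD, n = 3 libraries). CRP-like cells held more UMIs than other CapEC, with medians of 4555, 4531 and 2874 UMIs per cell against 1543, 2062 and 2067. After every cell was thinned to 1000 UMIs, Fscn1 was still seen in 36.8%, 41.4% and 55.6% of CRP-like cells against 13.6%, 18.8% and 11.8% of other CapEC. Fibroblasts had a Fscn1 UMI in 5.65%, 11.5% and 8.33% of cells after the same thinning. The label thus rested on Apln, Pgf and Trp53i11, by which the cells were chosen, and on Fscn1.

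**Figure D1:**
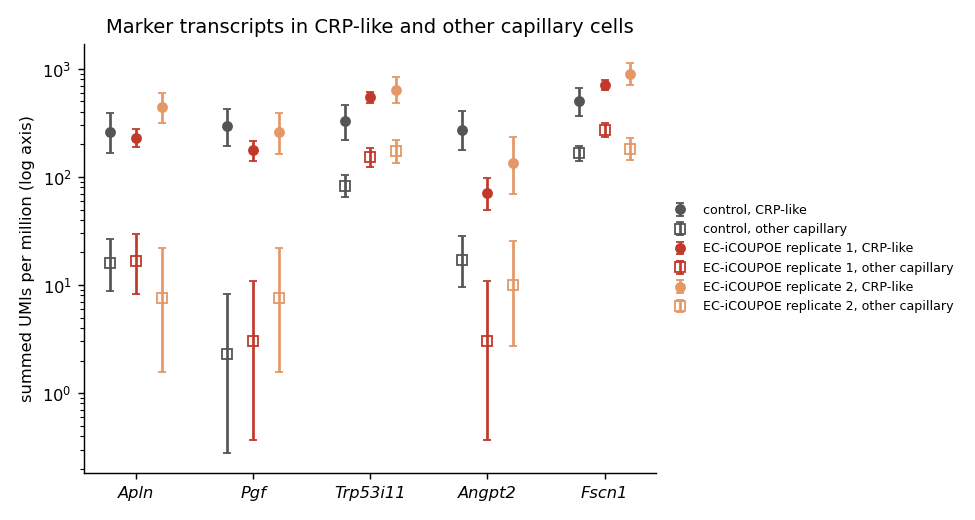
Summed UMIs in CPM (log axis) of Apln, Pgf, Trp53i11, Angpt2 and Fscn1 in CRP-like cells (filled circles) and other CapEC (open squares) of each library, with exact 95% Poisson intervals that cover counting error only. The first 4 genes chose the cells, and Fscn1, which did not, sits at 503, 708 and 903 CPM in CRP-like cells and at 165, 273 and 183 CPM in other CapEC.

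The CRP-like cells were not alike in the genes that let them in. A single rule gene gave all of the required UMIs in 8 of 19, 41 of 99 and 10 of 27 cells. Trp53i11 was that gene in 2, 34 and 8 cells, Apln in 2, 3 and 1, Pgf in 1, 2 and 0 and Angpt2 in 3, 2 and 1. Apln or Pgf was seen in 13, 59 and 17 cells and both in 2, 18 and 4. Cells just inside the limit, with a sum of 3 UMIs, numbered 8, 40 and 13, and cells just outside it, with a sum of 2 UMIs, numbered 46, 147 and 40. The median sum was 4 UMIs in every library and the highest sums were 17, 22 and 16 UMIs. Many of the cells therefore lay near the limit, and the class is a range of transcript sums. No clustering was run.

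Cells with Apln differed from those without it in more than Apln. In the 7, 48 and 14 CRP-like cells with an Apln UMI, Fscn1 stood at 569.5, 1142 and 1333 CPM, against 474, 353 and 488 CPM in CRP-like cells without one. Cldn5 stood at 641, 1959 and 1471 CPM against 964, 792 and 910.0 CPM, Odc1, the first enzyme of polyamine synthesis, at 463, 532 and 551 against 111, 202 and 222 CPM. Pgf, itself a rule gene, stood at 320.4, 268 and 368 against 284, 101 and 155 CPM. Fscn1 and Odc1 were thus higher beside Apln in all 3 libraries, and Cldn5 in the EC-iCOUPOE libraries but not in the control. Acta2, the smooth muscle actin gene, went the other way, with 0, 39.5 and 184 CPM in cells with Apln and 1264, 1188 and 2641 CPM in cells without, as did Scgb3a1 with 107, 4.39 and 0 against 553, 36.0 and 133 CPM. Fscn1 stood at 205, 193 and 377 CPM in cells just outside the limit and 166, 342 and 628 CPM in cells just inside it, so that it was lower outside the limit in both EC-iCOUPOE libraries and higher there in the control. Dividing EC, which the rule left out, had 114, 126 and 218 CPM of Fscn1 and 11, 13 and 4 Apln UMIs. These values are descriptions without a test, since Apln chose the cells.

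CRP-like cells made up 0.770% of blood EC in the control (exact binomial 95% interval 0.464% to 1.20%), 2.74% in EC-iCOUPOE replicate 1 (2.23% to 3.33%) and 2.80% in EC-iCOUPOE replicate 2 (1.85% to 4.04%). The intervals cover counting error only, and the rule's UMI limit moves with depth. When all blood EC with at least 1000 UMIs were thinned to 1000 UMIs before the rule was applied, 3 of 1919, 8 of 2909 and 5 of 709 EC were CRP-like, or 0.156% (0.0323% to 0.456%), 0.275% (0.119% to 0.541%) and 0.705% (0.229% to 1.64%). Both EC-iCOUPOE shares stayed above the control share, on 3, 8 and 5 cells and with overlapping intervals. No test of the share between genotypes was run at either depth. The sort and the numbers of each EC type in a library also set this share. So can the rule genes, where they differ between libraries in EC generally. At 1000 UMIs per cell, other CapEC had Trp53i11 in 8.55%, 14.7% and 12.9% of cells and Angpt2 in 1.83%, 0.341% and 1.61%. Apln was seen in 1.43%, 2.39% and 1.08% of them and Pgf in 0%, 0% and 0.538%. Trp53i11 was the only rule gene in 2, 34 and 8 CRP-like cells. Its part in the share was not tested.

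**Figure D2:**
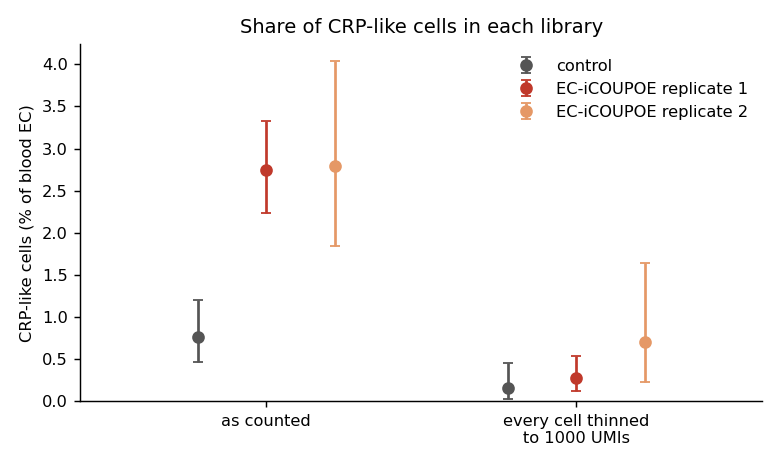
Share of blood EC that were CRP-like (%) in each library, with the rule applied to the counts as they are (left) and to cells thinned to 1000 UMIs (right). Bars are exact binomial 95% intervals, which cover counting error only. The control sits below both EC-iCOUPOE libraries on the left, and the 3 intervals overlap on the right.

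The rule set no limit on venous or mural transcripts, and part of the CRP-like cells carried them. Venous genes (Ackr1, Selp, Vwf, Lrg1, Il1r1, Glycam1 and Chst4) reached at least 2 UMIs in 8, 45 and 6 cells. Genes of pericytes and smooth muscle (Rgs5, Kcnj8, Pdgfrb, Notch3, Acta2, Myh11 and Itga7) reached at least 2 UMIs in 4, 15 and 5 cells. Single cells held much of the mural signal, with 76 of 122, 122 of 507 and 93 of 173 mural UMIs in the highest cell of each library. Capillary genes reached at least 3 UMIs in 15, 85 and 23 cells, and 8, 35 and 18 cells met all limits that were set for the other CapEC. The other CapEC were held to low venous and arterial counts and the CRP-like cells were not. Each comparison below was repeated on the 10, 44 and 19 CRP-like cells with at most 1 venous and 1 mural UMI, called the restricted cells. This restriction set no arterial limit, and the other CapEC had no mural limit, so the 2 classes were still not held to the same limits. They held 40520, 178152 and 54263 UMIs. The restriction was chosen after the values were seen. Scrublet called 1, 0 and 0 CRP-like cells doublets, and called 2.41%, 0.968% and 0.322% of all cells kept. By sex-linked transcripts 14, 48 and 13 CRP-like cells were called female and 0, 26 and 7 male, and the others were not called. The control held no CRP-like cell called male, while 24 of its other CapEC were.

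Against other CapEC, CRP-like cells had more transcript of the tight junction gene Cldn5, of the actin and intermediate filament genes Tmsb10 and Vim and of Fscn1, and less of Cxcl12, Scgb3a1, Ly6c1 and Thbd, in all 3 libraries and in the restricted cells as well. Of 1658 genes with a mean of at least 100 CPM, 28 (1.69%) were at least 2-fold higher in CRP-like cells in all 3 libraries and 27 (1.63%) were at least 2-fold lower. These are descriptions without a test, since the cells were chosen from the same counts. Among them, 6 of the higher genes (Apln, Fbln5, Lrg1, Pgf, Trp53i11 and Vwf) and 3 of the lower ones (Cd300lg, Flt1 and Rgcc) had served in the rule or in the limits of the other CapEC. Of 1674 genes in the restricted cells, 20 (1.19%) were higher and 19 (1.14%) lower. The 11 higher genes found both ways made up 39.3% of the first list and 55.0% of the second, and were Apln, Cd82, Cldn5, Fscn1, Odc1, Pgf, Ppp1r14b, Tgfbi, Tmsb10, Trp53i11 and Vim. The 13 lower genes found both ways (48.1% and 68.4%) were Ace, Adgrg1, Cxcl12, Cyyr1, Grrp1, Ly6c1, Plat, Plcb1, Podxl, Scgb3a1, Smco4, Thbd and Tspan8.

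Cldn5, which seals endothelial junctions, stood at 865, 1318 and 1185 CPM in CRP-like cells and 195, 241 and 215 CPM in other CapEC. Every library of CRP-like cells lay above every library of other CapEC, and the log2 ratio was 2.35 ± 0.18 (SD, n = 3) in all CRP-like cells and 2.67 ± 0.31 in the restricted cells. Tmsb10, which encodes an actin-binding thymosin, stood at 1182, 1807 and 3861 against 416, 818 and 1525 CPM, a log2 ratio of 1.33 ± 0.18. The libraries differed in Tmsb10 by as much as the cell classes did, and within each library it was higher in CRP-like cells. Vim, which encodes the filament protein vimentin, stood at 3503, 2735 and 1377 against 1352, 1356 and 601 CPM (1.19 ± 0.18). Odc1 stood at 219, 350.3 and 384 against 50.1, 98.1 and 65.1 CPM (2.17 ± 0.36), and the tetraspanin gene Cd82 at 142, 162 and 248 against 25.1, 49.8 and 32.6 CPM (2.38 ± 0.62). For Odc1 and Cd82 too, no CRP-like library fell into the range of the other CapEC. The same ratio in the restricted cells was 2.36 ± 0.16 for Fscn1, 1.69 ± 0.21 for Tmsb10, 1.47 ± 0.33 for Vim, 2.13 ± 0.30 for Odc1 and 2.64 ± 0.53 for Cd82, so each of these remained higher. Nid2, a basement membrane nidogen listed among tip cell genes, and Gpihbp1, which carries lipoprotein lipase to the capillary lumen, were at least 2-fold higher in all 3 libraries in the restricted cells, with log2 ratios of 2.07 ± 0.24 and 1.57 ± 0.34. In all CRP-like cells Nid2 had a ratio of 1.52 ± 0.10 but lay under the filter of 100 CPM, and Gpihbp1 had one of 1.04 ± 0.66 and was not called.

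Other large increases were uneven among the cells. Tpm2, Acta2, Tagln and Myl9, contractile genes of smooth muscle, had log2 ratios of 4.74 ± 1.09, 4.71 ± 0.97, 4.29 ± 1.13 and 3.63 ± 0.99. Tpm2 was seen in 3, 8 and 2 CRP-like cells and Acta2 in 3, 11 and 7, with up to 55, 94 and 70 Acta2 UMIs in a single cell. Among the restricted cells Tpm2 had 0 UMIs in every library and Acta2 had 0, 0 and 2. Acta2 is itself 1 of the mural genes of that restriction, whereas Tpm2 is not. Lrg1, one of the venous genes of which the other CapEC could hold at most 1 UMI per cell, and Ccl21a, a chemokine gene of HEC and lymphatic EC, had log2 ratios of 3.92 ± 1.15 and 3.97 ± 0.73. Ccl21a was seen in 6, 10 and 8 CRP-like cells with up to 82, 133 and 148 UMIs in 1 cell, and in EC-iCOUPOE replicate 2 that cell held 148 of 155 UMIs and was among the restricted cells. The metallothionein gene Mt1 (3.27 ± 0.78) was seen in 4, 7 and 2 cells and in no restricted cell. Fbln5, an elastic fibre gene used in the arterial limit, had a ratio of 3.38 ± 0.78, and the galectin gene Lgals1 one of 2.61 ± 0.72.

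**Figure D3:**
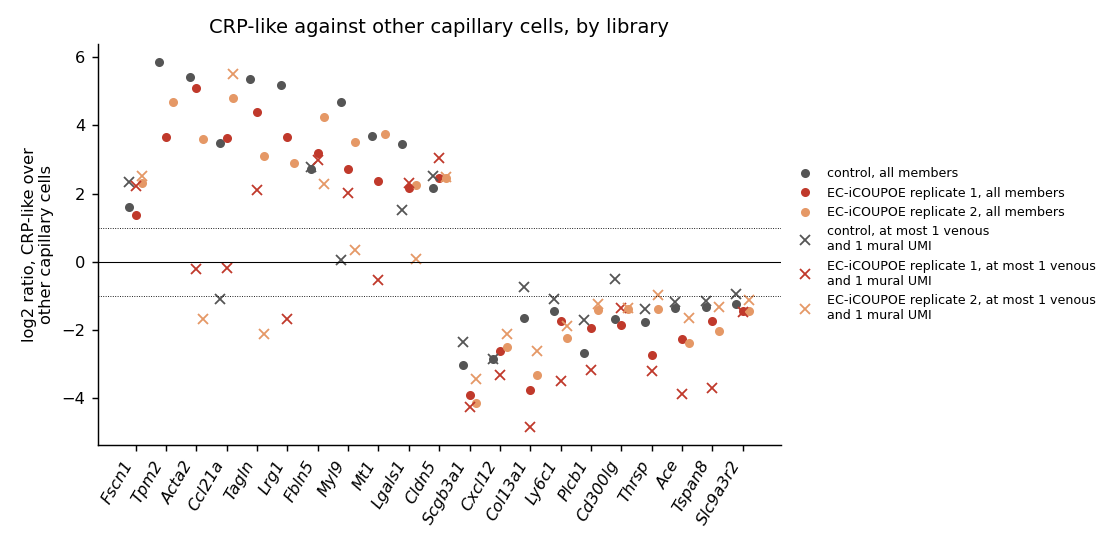
Log2 ratio of summed CPM in CRP-like cells over other CapEC for Fscn1, the 10 most increased genes and the 10 most decreased ones, in all CRP-like cells (circles) and in the restricted cells with at most 1 venous and 1 mural UMI (crosses), 1 symbol per library. Dotted lines mark 2-fold, a class with 0 UMIs was set to a floor of 3 UMIs per library, and no symbol is drawn where the ratio could not be had. Circles and crosses lie on the same side of 0 for Fscn1, Cldn5 and Cxcl12 in every library, and the crosses lie below the circles for Tagln and Myl9 wherever both are drawn.

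Several genes of resting capillaries were lower. Cxcl12, a chemokine gene of capillary and arterial EC, stood at 219, 63.3 and 113 CPM in CRP-like cells against 1586, 388 and 636 CPM in other CapEC, a log2 ratio of -2.66 ± 0.19 (SD, n = 3) and of -2.75 ± 0.60 in the restricted cells. Every library of CRP-like cells lay below every library of other CapEC. Scgb3a1, which encodes a secretoglobin, stood at 416, 21.8 and 67.7 against 3389, 324 and 1199.5 CPM (-3.69 ± 0.59), and Ly6c1, a surface antigen gene of capillaries, at 1084, 399.7 and 994 against 2934, 1317 and 4665 CPM (-1.80 ± 0.40). Both differed widely between the libraries in both cell classes. Thbd, which encodes the anticoagulant receptor thrombomodulin, stood at 98.5, 87.1 and 102 against 358, 199 and 391 CPM (-1.67 ± 0.41), and Slc9a3r2, a scaffold gene, at 383, 313 and 294 against 906, 854 and 796 CPM (-1.38 ± 0.12). In both genes the 2 classes did not overlap. Ratios were -2.91 ± 1.11 for the collagen gene Col13a1, -2.01 ± 0.62 for the phospholipase gene Plcb1, -1.95 ± 0.69 for the lipid synthesis gene Thrsp, -2.00 ± 0.56 for Ace, the angiotensin-converting enzyme, and -1.69 ± 0.35 for the tetraspanin gene Tspan8, which had 0 UMIs in the CRP-like cells of EC-iCOUPOE replicate 2 and was set to the floor of 3 UMIs there. Kdr and Flt1, receptors of VEGF, stood at 438, 427 and 519 and 493, 368 and 373 CPM in CRP-like cells against 876, 851 and 691 and 1177, 816 and 879 CPM in other CapEC. Kdr was among the genes that chose the other CapEC and Flt1 among those that chose all blood EC. Plvap, which forms the diaphragms of fenestrated capillaries and chose no cells, stood at 1773, 1795 and 2359.6 against 3734, 4090.2 and 4643 CPM (-1.08 ± 0.11), just short of 2-fold in EC-iCOUPOE replicate 2.

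By pathway, genes of mature capillaries, some of which had chosen the other CapEC, had the lowest median of the 13 lists counted in all CRP-like cells. In the restricted cells arterial genes had it. Over all genes, 1.69% were called higher and 1.63% lower in all CRP-like cells and 1.19% and 1.14% in the restricted cells. Of 18 mature capillary genes 14 passed the filter, of which Cd300lg, Ly6c1, Rgcc and Scgb3a1 were at least 2-fold lower in all libraries, Cldn5 was higher and 9 were neither, with a median log2 ratio of -0.94 against 0.01 over all 1658 genes. In the restricted cells their median was -0.87, Cldn5 and Gpihbp1 were higher and Ly6c1 and Scgb3a1 lower. Cd36, Gpihbp1, Rgcc, Cd300lg and Ramp3 of that list had chosen the other CapEC. The choice itself thus favoured a low median of the list, and no median without these genes is given. Of 17 actin cytoskeleton genes all passed the filter, Tmsb10 and Vim were higher and none lower, and the median was 0.47 in all CRP-like cells and 0.76 in the restricted cells. Actb, a cytoplasmic actin gene, had a ratio of 0.31 ± 0.19. Of 14 basement membrane genes 9 passed and none was called, with a median of 0.27. Among the restricted cells 11 passed, Nid2 was higher and the median was 0.60, where Sparc, Col4a1 and Col4a2 had ratios of 1.00 ± 0.40, 0.54 ± 0.16 and 0.60 ± 0.28. Of 20 tip cell genes other than the rule genes 12 passed the filter, and Fscn1 alone was higher, with a median of 0.12. Thus the tip cell list as a whole lay near the median of all genes. Of 12 Notch genes 4 passed and none was called, with a median of -0.47, and of 11 receptors and ligands of the VEGF, TIE and apelin pathways 7 passed, Flt1 was lower and the median was -0.80. Of 21 genes of replication and entry into the cell cycle 5 passed and none was called (median 0.15), in cells from which dividing cells had been removed by the rule. None of 19 hypoxia and glycolysis genes (9 passing, median 0.22), 17 interferon genes (9 passing, -0.36), 11 MHC genes (7 passing, -0.43) or 16 genes of the response to dissociation (15 passing, -0.28) was called. Of the dissociation genes, which respond to tissue handling, Ier3 and Klf2 were lower in the restricted cells, 11 of 15 lay below 0 in all 3 libraries, against 323 of all 1674 genes, and the median was -0.81 against 0.02 over all genes, and their part in the other differences was not tested. Of 18 venous and HEC genes 7 passed and Ccl21a, Lrg1 and Vwf were higher (median 1.73), and in the restricted cells, chosen for low venous counts, 5 passed and none was called. Of 14 arterial genes 6 passed, Fbln5 was higher and Cxcl12 lower (median -0.11). Among the restricted cells 5 arterial genes passed, Cxcl12 was lower, none was higher, 4 lay below 0 in all 3 libraries and the median was -1.43. The summed arterial genes by which the other CapEC were limited were nonetheless higher in the restricted cells, as given below.

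Transcripts of other cell types were counted in the same cells. The 7 mural genes summed to 1335, 1003 and 1953 CPM in CRP-like cells and 65.0, 52.8 and 168 CPM in other CapEC, Acta2 leading in every CRP-like sum. The 7 venous genes summed to 1926, 1306 and 734 CPM against 185, 179.5 and 153 CPM and to 49.4, 39.3 and 111 CPM in the restricted cells. The 6 arterial genes, of which Fbln5 gave most, summed to 274, 321 and 305 against 91.2, 52.8 and 75.1 CPM. In the restricted cells, which had no arterial limit, they summed to 370, 213 and 111 CPM, also above other CapEC in every library. Fibroblast genes stood at 32.8, 13.9 and 11.3 CPM against 83.2, 4.53 and 15.0 CPM, lymphocyte genes had 1, 4 and 0 UMIs and myeloid genes 0, 3 and 0 UMIs in all CRP-like cells together. Lymphatic genes summed to 0, 105 and 102 CPM against 2.28, 22.6 and 32.6 CPM, mostly Lyve1. Red cell transcripts stood at 0, 3.96 and 11.3 CPM in CRP-like cells and at 457, 1239 and 32.6 CPM in other CapEC. The other CapEC had been limited to 1 venous UMI and 1 arterial UMI per cell, so the difference in the venous and arterial sums was set by the choice. The mural sum was not limited and was higher in CRP-like cells, as were Tpm2, Tagln and Myl9, which are not in it, and Acta2, which gave the most to it. Their part in the other differences was measured only through the restricted cells.

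The genotype was read from Nr2f2 (7:70351944-70366735, minus strand), the overexpressed gene. It stood at 87.6, 1553 and 869 CPM in CRP-like cells, with a UMI in 5 of 19, 96 of 99 and 22 of 27 cells. Both EC-iCOUPOE libraries lay far above the control, with log2 ratios of 4.15 and 3.31 (mean 3.73 ± 0.59, SD, n = 2 libraries against the same control), and edgeR's quasi-likelihood test with Benjamini-Hochberg adjustment gave an adjusted p of 9.35e-06 (0.0948 with RLE size factors). In that test the lone control was assumed to vary like the EC-iCOUPOE libraries, with 1 residual degree of freedom. The restricted cells had 0, 1319 and 921 CPM, so the control's Nr2f2 lay in cells with venous or mural transcripts. In other CapEC Nr2f2 stood at 6.84, 1513 and 846 CPM, and in the EC-iCOUPOE libraries CRP-like cells had the level of other CapEC, with log2 ratios between the classes of 0.04 and 0.04. After thinning to 1000 UMIs it was seen in 5.26%, 65.7% and 55.6% of CRP-like cells and 0.611%, 65.9% and 45.2% of other CapEC. Fibroblasts had a Nr2f2 UMI in 4.82%, 34.6% and 16.7% of cells after the same thinning (of 2654, 26 and 12 cells, with medians of 2799, 4248 and 3706 UMIs before it). In the EC-iCOUPOE libraries this share was smaller than in either class of EC. The fibroblasts also had the endothelial transcripts Kdr in 1.21%, 7.69% and 0% and Cd36 in 1.06%, 11.5% and 0% of cells. Whether their Nr2f2 was their own was not tested.

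The rule genes describe the cells under both genotypes but chose them, and their ratios have no test here. EC-iCOUPOE against control, the log2 ratio was 0.28 ± 0.66 for Apln, -0.47 ± 0.40 for Pgf, 0.86 ± 0.16 for Trp53i11 and -1.48 ± 0.66 for Angpt2 (SD, n = 2). Angpt2 was the only one of them that was at least 2-fold lower in both libraries. Trp53i11 was higher in other CapEC as well, with ratios of 0.87 and 1.05. Fscn1, at 503, 708 and 903 CPM, had a ratio of 0.67 ± 0.25 and an edgeR adjusted p of 0.933, so no difference passed the test. Aplnr, the apelin receptor, stood at 131, 572 and 452 CPM. Both EC-iCOUPOE libraries lay above the control, with a log2 ratio of 1.95 ± 0.24 and an edgeR adjusted p of 0.0422, and in the restricted cells the ratio was 2.68 ± 0.06 at an edgeR adjusted p of 0.484, which misses the threshold. Without the control cell with most Madcam1 UMIs, described below, Aplnr also missed it, at a log2 change of 2.12 against 1.99 with that cell (edgeR adjusted p = 0.209). Nkx2-3 stood at 328, 156 and 259.7 CPM (-0.70 ± 0.52, edgeR adjusted p = 0.867) and was lower than in other CapEC, which had 617, 451 and 453 CPM. Hey1 had 12, 9 and 1 UMIs, or 131, 17.8 and 11.3 CPM, and St6gal1, a sialyltransferase gene of HEC, had 1, 15 and 7 UMIs, or 10.9, 29.7 and 79.0 CPM. Both were under the filter of 100 CPM. At a filter of 30 CPM the log2 change was -2.90 for Hey1 (edgeR adjusted p = 0.0242) and 1.92 for St6gal1 (edgeR adjusted p = 0.836), so that Hey1, on 12 control UMIs, was lower.

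Madcam1 (10:79664559-79668537, plus strand) was present in CRP-like cells of every library, at 1795, 1536 and 2066 CPM, and no difference between the genotypes in these sums passed the test (-0.01 ± 0.30, edgeR adjusted p = 0.998). One control cell held most of the control sum. Of 164 Madcam1 UMIs in the 19 control cells, 132 were in a single cell, which also held 92 UMIs of the 7 venous genes. Without that cell the mean log2 ratio over both EC-iCOUPOE libraries was 2.23, at an edgeR adjusted p of 0.204. Counted by cells, Madcam1 was seen in 8 of 19, 83 of 99 and 21 of 27 CRP-like cells, and after thinning to 1000 UMIs in 21.1%, 64.6% and 66.7% of them. Fibroblasts, a class in which lymphoid stroma of PP can itself carry Madcam1, had a thinned share of 4.75%, 3.85% and 0% (0 of 12 cells, exact binomial 95% upper limit 26.5%), and other CapEC 5.30%, 51.9% and 41.4%. In the restricted cells Madcam1 stood at 49.4, 994 and 2119 CPM, from 2, 177 and 115 UMIs, with log2 ratios of 4.33 and 5.42 against a control of 2 UMIs. Other CapEC had 76.4, 1307 and 1575 CPM and ratios of 4.10 and 4.37. In each library the restricted cells thus had Madcam1 within 2-fold of other CapEC, whereas in all CRP-like cells the control sum lay far above the control CapEC. No edgeR call was made for Madcam1 in the restricted cells (adjusted p = 0.438).

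**Figure D4:**
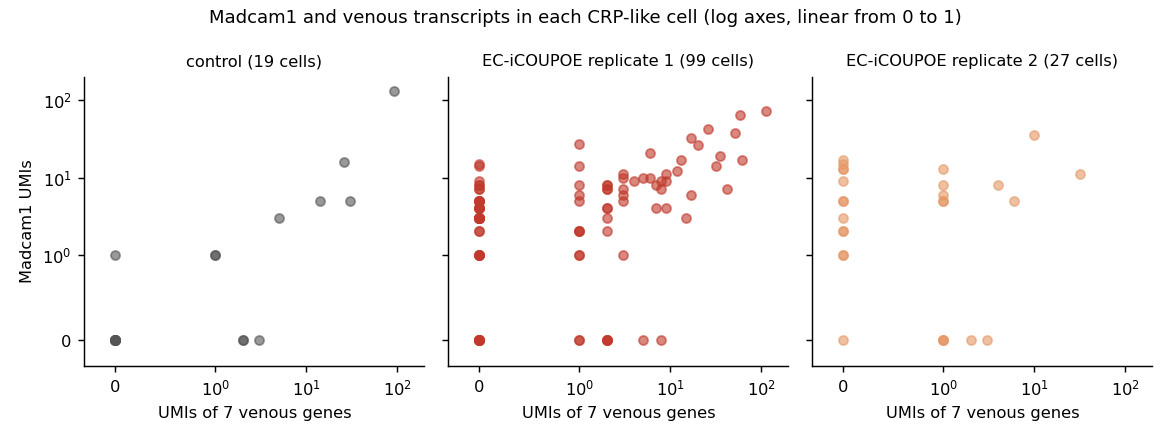
Madcam1 UMIs (vertical) against the summed UMIs of 7 venous genes (horizontal) in every CRP-like cell, 1 panel per library and 1 point per cell, on log axes that are linear from 0 to 1. In the control, the cell with 132 Madcam1 UMIs and 92 venous UMIs stands alone at the top right, and in EC-iCOUPOE libraries many cells have Madcam1 at 0 or 1 venous UMI.

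Within the EC-iCOUPOE libraries, after thinning to 1000 UMIs, Madcam1 was also seen in CRP-like cells left without a Nr2f2 UMI. At 1000 UMIs per cell, Madcam1 was seen in 17 of 34 cells (50%, exact binomial 95% interval 32.4% to 67.6%) without Nr2f2 and 47 of 65 (72.3%, 59.8% to 82.7%) with it in EC-iCOUPOE replicate 1. In EC-iCOUPOE replicate 2 the numbers were 6 of 12 (50%, 21.1% to 78.9%) and 12 of 15 (80.0%, 51.9% to 95.7%). In both libraries the share was higher with Nr2f2, and the intervals of the 2 classes overlapped. Restricted cells had shares of 52.9% (9 of 17) and 63.0% (17 of 27) in replicate 1 and 57.1% (4 of 7) and 83.3% (10 of 12) in replicate 2. None of the 10 restricted control cells had Madcam1 at this depth, with an exact binomial 95% interval of 0% to 30.8%. A cell with 0 Nr2f2 UMIs in 1000 may still express the gene. Before thinning 96 of 99 and 22 of 27 CRP-like cells of the EC-iCOUPOE libraries had a Nr2f2 UMI. Most cells counted here as without Nr2f2 thus lost it by thinning, and Madcam1 in cells that lack Nr2f2 was not shown.

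Across all genes, 68 of 1652 (4.12%) were at least 2-fold higher in CRP-like cells of both EC-iCOUPOE libraries than in the control, and 47 (2.85%) were at least 2-fold lower. The edgeR test called 27 higher (1.63%) and 17 lower (1.03%) at an adjusted p under 0.05, of which 23 and 17 were also among the 2-fold genes. With RLE in place of TMM size factors edgeR called 1 higher and 3 lower, so the number of calls moved with the scaling. Without the control cell with most Madcam1 UMIs it called 4 higher and 5 lower, among them Nr2f2 and Cxcl10 (edgeR adjusted p = 0.0363 for each). DESeq2 called 3 higher (Ftl1-ps1, Nr2f2 and Rpl29) and 3 lower (Ccl5, Cytl1 and Serpina1b), all of them among edgeR's calls. In the restricted cells 131 of 1705 genes (7.68%) were 2-fold higher and 76 (4.46%) lower, edgeR called 0 of either direction with 53 higher and 36 lower at an unadjusted p under 0.05, and 43 higher genes (63.2% of the first list, 32.8% of the second) and 18 lower genes (38.3% and 23.7%) were found both ways. The control side of each of these counts was 19 cells, or 10 restricted cells.

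Among the higher genes, Emilin1, a gene of elastic fibres, stood at 21.9, 219.7 and 282 CPM with an edgeR adjusted p of 0.00102. Ctgf, a matricellular gene, stood at 21.9, 164 and 192 CPM (adjusted p = 0.0453, edgeR) and Prcp, a prolylcarboxypeptidase gene, at 43.8, 271 and 361 CPM (adjusted p = 0.00189, edgeR). In each of them both EC-iCOUPOE libraries lay above the control, and each was at least 2-fold higher in other CapEC of both libraries too. The restricted cells had 0, 275 and 424, 0, 196 and 239.6 and 24.7, 269 and 387 CPM of the 3 genes. The edgeR adjusted p missed the threshold there, at 0.438, 0.484 and 0.484 in this order. The log2 changes there were 7.95, 7.29 and 3.63, those of Emilin1 and Ctgf against 0 control UMIs. DESeq2 called none of the 3 genes in all CRP-like cells. Cxcl10, an interferon-inducible chemokine gene, had 0 control UMIs and stood at 0, 218 and 327 CPM (log2 ratios of at least 2.73 and 3.32 with the control set to a floor of 3 UMIs, edgeR adjusted p = 2.82e-06). It was seen in 0, 16 and 7 cells, so that few cells carried it. The call was lost with RLE size factors (edgeR adjusted p = 0.0814), by DESeq2 (adjusted p = 0.34) and in the restricted cells (edgeR adjusted p = 0.934). The log2 change in those fits was 8.90, 7.07 and 6.87, against 8.89 in the main fit. All of these are set against 0 control UMIs, so that their size is not exact. With a rule sum of at least 2 UMIs the log2 change was 1.70 (edgeR adjusted p = 0.162) with an interaction of -3.67 (edgeR adjusted p = 0.00079). The venous gene Vwf stood at 87.6, 305 and 215 CPM (1.55 ± 0.36, edgeR adjusted p = 0.151) and the restriction factor gene Bst2 at 229.9, 789.6 and 677 CPM (1.67 ± 0.16, edgeR adjusted p = 0.11). Both passed the 2-fold rule and not the test.

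Some of the largest increases lay in genes that moved in the same way in other CapEC. Ftl1-ps1, a ferritin light chain locus, stood at 10.9, 720.3 and 813 CPM in CRP-like cells and 25.1, 714 and 756 CPM in other CapEC. The ribosomal protein gene Rpl29 stood at 120.4, 1209 and 1694 and 126, 1184 and 1417 CPM, and AY036118, a locus with ribosomal sequence, at 43.8, 445 and 858 and 79.8, 756 and 879 CPM. Their edgeR adjusted p were 1.11e-08, 3.1e-05 and 2.14e-05, and their levels differed between libraries alike in both cell classes. Ftl1-ps1 can share reads with Ftl1, so that its count is uncertain. Erh (10.9, 160.3 and 215 CPM) and Rnf187 (21.9, 162 and 215 CPM) were also called, and Rnf187 had ratios of 0.38 and 0.21 in other CapEC against 2.89 and 3.29 in CRP-like cells, where the control had 2 UMIs. The interaction did not pass for Rnf187 (edgeR adjusted p = 0.909). The libraries of both cell classes are the same, so these values are not independent of each other.

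Of the lower genes, Scgb3a1 fell from 416 CPM in the control to 21.8 and 67.7 CPM (log2 ratio -3.44 ± 1.16, edgeR adjusted p = 2e-07). Enpp2, which encodes autotaxin, the enzyme that makes lysophosphatidic acid, stood at 482, 123 and 67.7 CPM (adjusted p = 0.000366, edgeR), and Glul, glutamine synthetase, at 383, 65.3 and 79.0 CPM (adjusted p = 0.000341, edgeR). Klf4, a transcription factor gene that flow induces in EC, stood at 613, 206 and 192 CPM (adjusted p = 0.0452, edgeR). In these 4 genes both EC-iCOUPOE libraries lay below the control, in all CRP-like cells and in the restricted cells, which had 666, 0 and 111 CPM for Scgb3a1, 642, 33.7 and 92.1 for Enpp2, 494, 28.1 and 92.1 for Glul and 617, 73.0 and 36.9 for Klf4. The edgeR adjusted p in the restricted cells missed the threshold, at 0.66, 0.325, 0.438 and 0.325 in this order. Other CapEC had 3389, 324 and 1199.5, 267, 31.7 and 32.6, 786, 167 and 481 and 588, 237 and 446 CPM, also lower in both EC-iCOUPOE libraries. Clu, which encodes the secreted chaperone clusterin, stood at 1697, 374 and 67.7 CPM with 65 of the 155 control UMIs in 1 cell. Mgp, an inhibitor of calcification, was seen in 10, 5 and 1 cells at 296, 27.7 and 11.3 CPM. The imprinted gene Mest stood at 350.3, 75.2 and 33.9 CPM, with 17 of the 32 control UMIs in 1 cell. Other calls had much of their control UMIs in 1 cell. Ccl5, a T cell chemokine gene, had 43 UMIs in a single control cell and none elsewhere, Serpina1b had 30 of 52 control UMIs and Cytl1 27 of 36 in 1 cell. Ubd stood at 350.3, 75.2 and 0 CPM and Cpe at 306, 29.7 and 0 CPM, and both were called. Mgp, Ubd and Cpe were also at least 2-fold lower in other CapEC of both EC-iCOUPOE libraries. The control held far more fibroblasts, 2654 against 26 and 12 cells. Fibroblast genes summed to 32.8, 13.9 and 11.3 CPM in CRP-like cells and 83.2, 4.53 and 15.0 CPM in other CapEC. Whether fibroblast transcripts had a part in the genes called lower was not tested. The HEC genes Glycam1 at 372, 105 and 0 CPM and Ackr1 at 350.3, 97.0 and 22.6 CPM were called lower. Single cells held 25 of 34 control and 51 of 53 EC-iCOUPOE replicate 1 UMIs of Glycam1 (DESeq2 adjusted p = 1), and among the restricted cells, chosen for few venous UMIs, they had 2, 1 and 0 and 0, 0 and 0 UMIs.

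**Figure D5:**
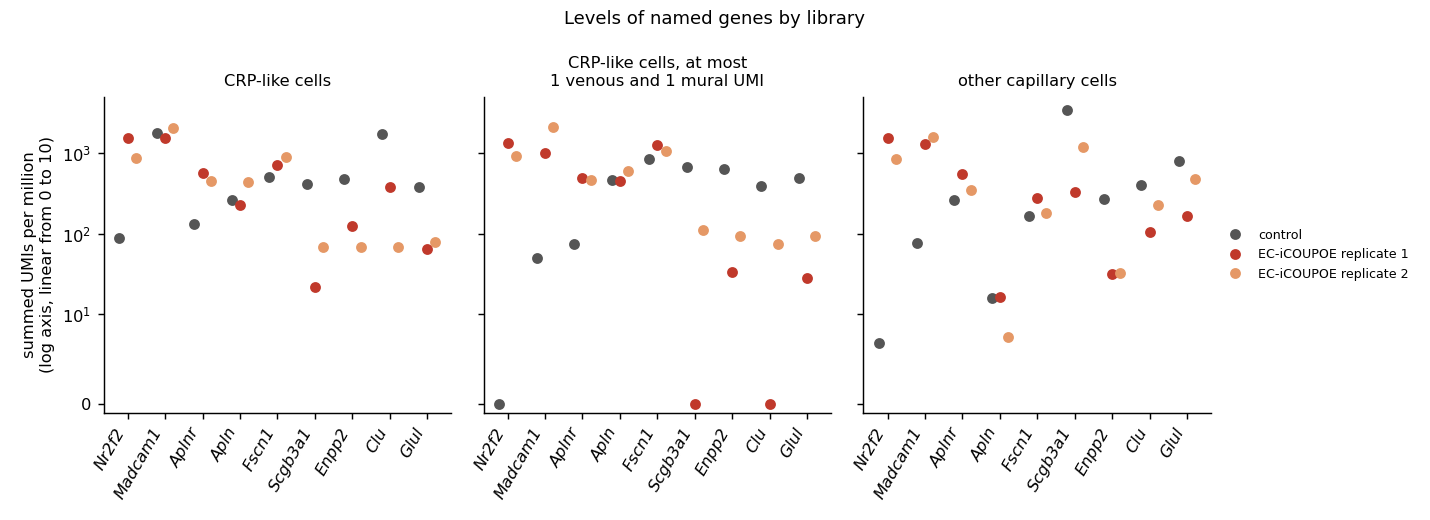
Summed CPM of 9 genes (log axis, linear from 0 to 10) in all CRP-like cells, the restricted cells and other CapEC, 1 point per library. Nr2f2 is higher and Scgb3a1, Enpp2 and Glul are lower in both EC-iCOUPOE libraries in every panel, and Madcam1 is at the EC-iCOUPOE level in the control only in the panel of all CRP-like cells.

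By pathway, list members are counted by the 2-fold rule, which called 4.12% of all genes higher and 2.85% lower. Of the 13 tip cell genes tested, Lxn alone was at least 2-fold lower in both EC-iCOUPOE libraries and none was higher, with a median log2 ratio of 0.22 against -0.03 over all 1652 genes. Of 6 VEGF, TIE and apelin genes Aplnr was higher (median -0.15), and of 4 Notch genes none was called (0.17). In the restricted cells, where 7.68% of all genes were called higher and 4.46% lower, the tip cell genes Cxcr4, Nrp1 and Unc5b were lower and Dll4 was higher, Nrp1 being also on the VEGF list and Unc5b and Dll4 on the Notch list. Unc5b, a netrin receptor, stood at 370.2, 0 and 18.4 CPM, and the Notch ligand gene Dll4 at 49.4, 146 and 129 CPM, each resting on few UMIs (15, 0 and 1 for Unc5b and 2, 26 and 7 for Dll4). None of 10 basement membrane genes (median -0.16), 17 actin cytoskeleton genes (-0.09) or 9 hypoxia and glycolysis genes (-0.21) was called in all CRP-like cells, and in the restricted cells Sparcl1 of the first list was lower and Gpi1 of the third higher. Of 13 mature capillary genes Scgb3a1 was lower (0.04), and of 7 arterial genes Clu, Gja4 and Mgp were lower (-1.37). Among the restricted cells Clu was lower and Fbln2 higher of 5 arterial genes, with a median of -0.69. Gja4, an arterial connexin gene, stood at 197, 71.2 and 33.9 CPM and passed the 2-fold rule but not the test (edgeR adjusted p = 0.474). Of 9 venous and HEC genes Nr2f2 and Vwf were higher and Ackr1, Enpp2 and Glycam1 lower (-0.77). Of that list, 5 passed the filter in the restricted cells, where Ccl21a, Madcam1 and Nr2f2 were higher and Enpp2 lower (3.48). In EC-iCOUPOE replicate 2 the Ccl21a UMIs lay mostly in the 1 cell described above, and edgeR gave it an adjusted p of 0.923 there. Of 9 interferon genes Bst2 and Cxcl10 were higher and Gbp4 lower (-0.15), of 7 MHC genes H2-D1 was lower (-0.19), of 5 replication genes Tubb5 was lower (0.09), and of 15 genes of the dissociation response Jund was higher and Klf4 lower (-0.11). In the restricted cells Tap1 of the MHC list and Ier3 of the dissociation list were higher too, while Jund was not called. H2-D1, a classical MHC class I gene, stood at 4893, 1999 and 2179 CPM in CRP-like cells and 6104, 2821 and 3018 CPM in other CapEC, with an edgeR adjusted p of 0.628 in CRP-like cells. Its reads can be shared with other class I genes.

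Whether EC-iCOUPOE acted on CRP-like cells as on other CapEC was tested as an interaction in edgeR, over 6 sums (2 cell classes in 3 libraries) with the library as a block. Of 1658 genes, 1 passed (0 higher, 0%, and 1 lower, 0.0603%), and 25 and 49 had an unadjusted p under 0.05. The gene was Madcam1, with a difference in log2 effect of -4.24 and an adjusted p of 0.00289 by edgeR, and 132 of the control UMIs behind it lay in 1 cell. Without that cell alone, a fit added after the data were seen, the difference was -1.99 at an edgeR adjusted p of 0.497, and no gene passed, with 26 genes higher and 42 lower at an unadjusted p under 0.05. The call held under other choices of the members, with -5.42 for a sum of at least 2 UMIs (edgeR adjusted p = 1.06e-10) and -2.22 for cells with at least 2 rule genes (edgeR adjusted p = 0.0028), but not for a sum of at least 5 UMIs (-0.07, edgeR adjusted p = 0.995). Over the restricted cells the same difference was 0.63 at an adjusted p of 0.965. The next genes by p were Prss23, Nr2f2, Ctsl and Atf3, with edgeR adjusted p of 0.385, 0.438, 0.447 and 0.794. Prss23 passed in several other settings, with -1.76 at 30 CPM (edgeR adjusted p = 0.0144) and -2.98 in the restricted cells (4.54e-08). It missed with RLE size factors (edgeR adjusted p = 0.579), at 300 CPM (0.497), without doublets (0.163) and with a sum of at least 2 UMIs (0.431). Ctsl also passed in several, with -1.99 in the restricted cells (edgeR adjusted p = 3.24e-05), but not after thinning (0.768). Prss23, a serine protease gene, stood at 919, 382 and 587 CPM in CRP-like cells and 354, 513 and 711 CPM in other CapEC, and Ctsl, which encodes cathepsin L, at 1532, 629 and 632 and 464, 667 and 473 CPM. In both, the control CRP-like sum lay above the EC-iCOUPOE sums while other CapEC did not fall. In the restricted cells 3 genes were higher (Apold1, Chchd10 and Ifi27l2a, 0.179%) and 14 lower (0.836%) of 1674, among them Ctsl, Klf4, Ly6c1 and Prss23. The interaction calls of all CRP-like cells and of the restricted cells had no gene in common.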

How the data were processed

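Gene expression was measured by droplet 3′ single-cell RNA sequencing in 3 PP libraries, 1 control and 2 EC-iCOUPOE, grouped by their labels. The labels name both the v3 platform and a v2 kit. The authors counted UMIs with Cell Ranger 3.0.2 (3.1.0 in the header of EC-iCOUPOE replicate 1) against mm10, and the deposited counts are raw whole UMIs per gene and barcode. No column of the authors' own comparisons was used.

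Cells needed 500 genes, 1000 UMIs and no more than 10% of UMIs from mitochondrial genes. UMIs were summed per library and cell class. Doublets were called with Scrublet (scanpy 1.11.5, Python 3.11.15, expected rate 6%) and kept in the main comparisons. CRP-like cells were set against other CapEC by 2-fold ratios in all 3 libraries, without a test. Genotypes were compared by 2-fold ratios in both EC-iCOUPOE libraries and by edgeR 4.0.16 (R 4.3.3, quasi-likelihood, TMM, FDR under 0.05), with DESeq2 1.42.0 as an alternative. Genes entered with a mean of at least 100 CPM over libraries. A sum of 0 was set to 3 UMIs, and no ratio was formed where both sums were at or under 3 UMIs. SDs are over libraries, and nothing says how many mice a library holds. The SDs between genotypes are of 2 ratios to the same control library. The edgeR p-values rest on 1 residual degree of freedom, and no spread between control libraries was measured. Poisson and binomial intervals cover counting error only. Without strand filtering checks, genes that overlap or have near-identical copies are uncertain.

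Named were the rule genes and Fscn1, Nr2f2 and its partners, the called and most abundant members of 13 gene lists, the 10 genes with the largest change in each direction and the 5 with the smallest interaction p. Other genes, among them those of the restricted cells, were named after their values were seen. The cells, gene lists and alternatives were chosen with earlier results of these data known, and the restriction to cells with at most 1 venous and 1 mural UMI, the other restrictions of the members and the fit without 1 control cell after these values were seen. Alternatives were other limits of the rule, thinning to 1000 UMIs, doublets or cells not called female left out, other filters, folds and size factors, and leaving out a library. Gene coordinates are those of GENCODE on GRCm38, the assembly of mm10. On simulated counts with known changes and no spread between libraries, the genotype test found 37 of 100 genes changed 2-fold and 77 of 100 changed 4-fold, of 1652, and with a dispersion of 0.05 it found 6 and 62. Of 1452 unchanged genes it called 0 and 1 in these 2 simulations. The interaction test called 8 and 3 of 1458 unchanged genes. In a further simulation the 2-fold rule called 11 of 1401 unchanged genes between genotypes and 0 of 1424 against other CapEC. All simulations drew sums with the same spread for every gene, or none. They held no single cells with much of a sum, as the control did, so their rates need not hold for these data.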

Additional observations from a re-analysis of the deposited data

Results flagged for a closer look

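The EC-iCOUPOE effect on Madcam1 differed between CRP-like cells and other CapEC by -4.24 on the log2 scale in edgeR's interaction test (adjusted p = 0.00289), in the fit across 1658 genes. It was singled out because 2 cell classes differed in their response to the same contrast. Of the 164 control Madcam1 UMIs in CRP-like cells, 132 lay in 1 cell with 92 venous UMIs. Without that cell the difference was -1.99 (adjusted p = 0.497, edgeR). It passed with a sum of at least 2 UMIs, which counts 65 control cells (-5.42, adjusted p = 1.06e-10, edgeR), and in cells with at least 2 rule genes, of which 11 are control cells (-2.22, adjusted p = 0.0028, edgeR). It did not pass with a sum of at least 5 UMIs (-0.07, adjusted p = 0.995, edgeR), and in the cells with at most 1 venous and 1 mural UMI the difference was 0.63 (adjusted p = 0.965, edgeR). Groups of 1 and 2 libraries were too small for a check of single samples.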

How the results depend on the processing

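Over single genes under the alternatives, 349 of 407 values of the genotype comparisons and 251 of 300 of the comparison with other CapEC were counted as unchanged. A called gene was so counted when its call held in the same direction. For a gene not called, the 2-fold value had to stay within its SD, or the test had to stay without a call, and the direction could change. The CPM filter was not applied to these alternative 2-fold calls. The share of CRP-like cells moved with the rule's UMI limit. In the order control, EC-iCOUPOE replicate 1 and EC-iCOUPOE replicate 2 it was 2.63%, 6.81% and 6.94% with a sum of at least 2 UMIs, 0.365%, 1.13% and 0.725% with at least 5 UMIs, and 0.156%, 0.275% and 0.705% in cells thinned to 1000 UMIs. Among blood EC called female it was 0.798%, 3.44% and 2.71%.

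Against other CapEC, 28 genes were higher and 27 lower. Other settings gave 59 and 46 at a mean of at least 30 CPM, 11 and 9 at 300 CPM, 73 and 47 with at least 1 UMI in every sum and 17 and 3 at 3-fold. There were 63 lower genes at 1.5-fold, 11 after thinning and 16 against all other non-dividing blood EC, and 17 higher genes in cells called female and 15 in cells held to the limits of the other CapEC. Against all other non-dividing blood EC, the log2 ratio turned to -0.40 for Ccl21a, -2.00 for Lrg1, -0.43 for Fbln5 and 0.11 for Cd300lg, and Ccl21a was -1.34 in cells held to the limits of the other CapEC. That comparator includes the venous and arterial EC.

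The 2-fold rule called 68 genes higher and 47 lower between genotypes. Other settings gave 306 and 267 at 30 CPM, 19 and 13 at 300 CPM, 334 and 321 with at least 1 UMI in every sum, 165 and 150 at 1.5-fold, 32 and 16 at 3-fold, 123 and 83 with a sum of at least 5 UMIs, 135 and 115 in cells held to the limits of the other CapEC, and 131 and 76 in the restricted cells. Higher genes numbered 112 in cells called female, and lower genes 26 with a sum of at least 2 UMIs, 94 after thinning and 71 in cells with at least 2 rule genes. Leaving out 1 EC-iCOUPOE library gave 105 to 151 higher and 132 to 137 lower, since a gene then had to pass in 1 library only.

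The edgeR counts of 27 higher and 17 lower moved under most settings. They were 13 and 4 at 300 CPM, 1 and 3 with RLE size factors, 3 and 3 by DESeq2, 8 and 5 with a sum of at least 2 UMIs, 11 and 8 with at least 5 UMIs, 5 and 7 without doublets, 4 and 5 without the control cell with most Madcam1 UMIs, 9 and 4 in cells held to the limits of the other CapEC and 1 and 5 in cells with at least 2 rule genes. They were 0 and 0 after thinning, in cells called female and in the restricted cells, where 88, 108 and 89 genes had an unadjusted p under 0.05. There were 11 higher genes with at least 1 UMI in every sum, 12 with Angpt2 left out and 29 lower genes at 30 CPM. The cause was not tested. Nr2f2 itself missed the threshold with RLE size factors (adjusted p = 0.0948, edgeR), thinned cells (0.615), cells called female (0.288), cells with at least 2 rule genes (0.0621) and restricted cells (0.325). Its log2 change in those fits was 3.80, 7.16, 4.26, 4.18 and 9.69, against 3.81 in all CRP-like cells, and 7.16 and 9.69 are set against a control of 0 UMIs.

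The interaction called 0 genes higher and 1 lower. It called 1 and 8 at 30 CPM, 3 and 9 with at least 1 UMI in every sum, 2 and 10 with a sum of at least 2 UMIs, 3 and 7 with at least 5 UMIs, 4 and 11 with Angpt2 left out, 1 and 4 in cells called female, 3 and 7 in cells held to the limits of the other CapEC, 4 and 11 in cells with at least 2 rule genes and 3 and 14 in the restricted cells, 0 and 0 without the control cell with most Madcam1 UMIs, 3 lower after thinning and 1 higher against all other non-dividing blood EC. The Madcam1 difference turned to 7.14 after thinning (3 control cells with 0 Madcam1 UMIs, so that the size has no meaning, adjusted p = 0.894, edgeR), 0.99 against all other non-dividing blood EC, 0.98 in cells held to the limits of the other CapEC and 0.63 in the restricted cells. It passed at -5.42 with a sum of at least 2 UMIs, -4.47 with Angpt2 left out, -4.31 without doublets, -4.44 in cells called female, -4.35 against capillary cells with 0 UMIs of the rule genes and -2.22 in cells with at least 2 rule genes. It was -0.07 with a sum of at least 5 UMIs and -1.99 without the control cell with most Madcam1 UMIs, and passed in neither. Over these settings the edgeR adjusted p ranged from 2.1e-51 to 0.995.

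No paired analysis was possible because the control library's label carries no replicate number and the genotypes share fewer than 2 numbers. The edgeR fits without 1 EC-iCOUPOE library were not run, since no residual degree of freedom would remain. Depth limits the control and EC-iCOUPOE replicate 2 most, where 1 UMI stands for 10.9 and 11.3 CPM and a sum of 0 allows up to 32.8 and 33.9 CPM. Genes under 100 CPM, Hey1 and St6gal1 among them, were compared only with lower filters.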
